A study of Mus musculus with 9 samples.

Results

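The heat shock proteins and molecular chaperones of MyC-CaP cells were followed through 24 hours of exposure to ASPN. The members were the genes of the count table whose names begin with Hsp and a family letter or digit, the J-domain genes of the Dnaja, Dnajb and Dnajc series, the TRiC genes (Tcp1 and Cct2 to Cct8 with the Cct6b and Cct8l1 paralogs), Bag1 to Bag6, the heat shock factors Hsf1 and Hsf2, and the Hsp90 cofactors Ahsa1 and Stip1. This rule gave 91 of the 15384 genes in the table. MyC-CaP is an androgen-responsive mouse prostate cancer cell line, and ASPN (asporin) is a protein secreted by fibroblasts of the tumor stroma. The cells were starved of serum and calcium, then given 100 ng/mL recombinant mouse ASPN and harvested at 0, 12 or 24 hours, with 3 replicate wells sequenced per time. The sample labels name ASPN for the time 0 libraries as well, and those libraries served as the reference. No library of cells kept for 12 or 24 hours without ASPN was analysed here, so the protein and the hours in culture cannot be told apart in any value that follows.

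Chaperones bind unfolded or newly made polypeptides and help them reach, or return to, their native fold. Hsp70 proteins do this in cycles of ATP hydrolysis that are started by J-domain proteins (the DNAJ families) and ended by nucleotide exchange factors such as the BAG and Hsp110 proteins, and their clients can be handed on to Hsp90 or to the ring-shaped chaperonin TRiC. The endoplasmic reticulum (ER) and the mitochondrion hold their own Hsp70, Hsp90 or Hsp60 forms. Heat shock factor 1 (HSF1) binds repeats of the unit GAA and its complement TTC, the heat shock elements, in front of many cytosolic chaperone genes, while the unfolded protein response acts on ER chaperone genes through ER stress elements. Many kinases and nuclear receptors of tumor cells are clients of Hsp90 and Hsp70.

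Upstream sequence was read from RefSeq promoter windows of GRCm38.p6, which held 74 of the 91 members. The 17 without a window, Hsp90aa1, Hsp90ab1, Hspa8, Cct4, Hspa9 and Hsf1 among them, were not searched for any element. Stretches of 4 genes are printed because the genes behind them carry the main contrasts described below: the nearly identical stress-inducible pair Hspa1a and Hspa1b, the mitochondrial Hspe1, and Hspa5, the Hsp70 of the ER. Each is written 5′ to 3′ on the strand of its gene and ends at or before the base in front of the RefSeq start. The Hspa5 gene of the count table begins earlier, at base 34771970, so the Hspa5 stretch lies within that gene. Capitals mark the pair of units GAANNTTC in Hspa1a (chr17:34972157-34972406, minus strand) and Hspa1b (chr17:34959239-34959488, minus strand), alternating units of the pattern GAANNTTCNNGAA or its complement in Hspe1 (chr1:55088050-55088079, plus strand), and the ER stress element, CCAAT and CCACG set 9 bases apart, in Hspa5 (chr2:34771980-34772089, plus strand).
Hspa1a: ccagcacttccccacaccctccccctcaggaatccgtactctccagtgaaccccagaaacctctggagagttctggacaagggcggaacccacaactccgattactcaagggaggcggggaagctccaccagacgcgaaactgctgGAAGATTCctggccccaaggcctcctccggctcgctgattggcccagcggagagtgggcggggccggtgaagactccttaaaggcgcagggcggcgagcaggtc
Hspa1b: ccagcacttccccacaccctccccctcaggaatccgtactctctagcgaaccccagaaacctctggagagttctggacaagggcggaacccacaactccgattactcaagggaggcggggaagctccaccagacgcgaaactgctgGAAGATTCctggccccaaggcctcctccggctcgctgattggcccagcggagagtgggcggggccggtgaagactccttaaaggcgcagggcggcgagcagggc
Hspe1: cacggtccgTTCTAGAACCTTCCGGAAggc
Hspa5: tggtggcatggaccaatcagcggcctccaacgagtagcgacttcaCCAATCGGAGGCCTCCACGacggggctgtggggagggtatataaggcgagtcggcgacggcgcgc
The full windows of Hspa1a and Hspa1b, 300 bases each, were identical at 296 positions, and the GAANNTTC pair began 104 bases before the start in both. Searched on both strands, GAANNTTC was found in the windows of 15 of the 74 members (20.3%) and of 9.04% of the 27025 genes with a window. The inward pair TTCNNGAA was found in 8 members (10.8%, against 9.60% of all genes). The longer pattern of 3 alternating units, which overlaps both pairs, was found in 4 members, namely Dnajb6, Hspd1, Hspe1 and Hsph1 (5.41%, against 0.662%). The ER stress element was found in 3 members, Hspa5, Hsp90b1 and Dnajc3 (4.05%, against 0.137%), and the element TGACGTGG in 1, Dnajc25 (1.35%, against 0.714%). These matches describe the letters of the windows, and binding was not measured.

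The counts on all genes of a library totaled 41881191 to 52993821. The 24-hour libraries (44779129 to 52993821) were all deeper than the 12-hour libraries (41881191 to 44766173), and those of time 0 overlapped both. The mitochondrially encoded genes took 2.60 to 2.85% of the counts at 0 and 12 hours and 0.113 to 0.203% at 24 hours, and the TMM scaling factors were 1.04 to 1.07 at 0 and 12 hours and 0.899 to 0.914 at 24 hours. Leaving the mitochondrially encoded genes out left the number of called members at 12 higher and 9 lower at 24 hours. The epithelial markers Cdh1, Epcam and Krt5 had at most 10 counts in every library. The fibroblast, leukocyte and endothelial markers summed to at most 14.1, 0.815 and 0.183 CPM in any library. In bulk RNA, fewer cells that express a gene and less of its RNA per cell cannot be told apart.

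Chaperone transcripts took a mean of 2.14% ± 0.0153 of all counts at time 0, 2.11% ± 0.0122 at 12 hours and 2.43% ± 0.0304 at 24 hours (SD, n = 3). The libraries ranged from 2.13 to 2.16% at time 0 and from 2.40 to 2.46% at 24 hours, so the first and the last time did not overlap. Most of this came from the Hsp90 family, which went from 0.772% ± 0.00754 at time 0 to 0.951% ± 0.0161 at 24 hours, the Hsp70 family (0.550% ± 0.00733 to 0.627% ± 0.0149) and TRiC (0.336% ± 0.00582 to 0.398% ± 0.00513). The shares of the BAG, HSF and 3 J-domain families were lower at 24 hours, for DNAJC 0.144% ± 0.0027 at time 0 and 0.127% ± 0.00149 at 24 hours. These shares carry no TMM scaling. After it, the summed level of DNAJC was 1369 ± 4.57 CPM at time 0 and 1394 ± 4.65 CPM at 24 hours, so the direction for this family flips with the scaling. It flips too for DNAJB (0.0529% to 0.0485% of counts, but 502 to 534 CPM) and for Hsp60 with Hsp10 (0.0968% to 0.0951%, which overlapped, but 917 to 1047 CPM), whereas HSP90 (7320.4 ± 184 to 10475 ± 192 CPM) was higher at 24 hours either way.

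**Figure D1:**
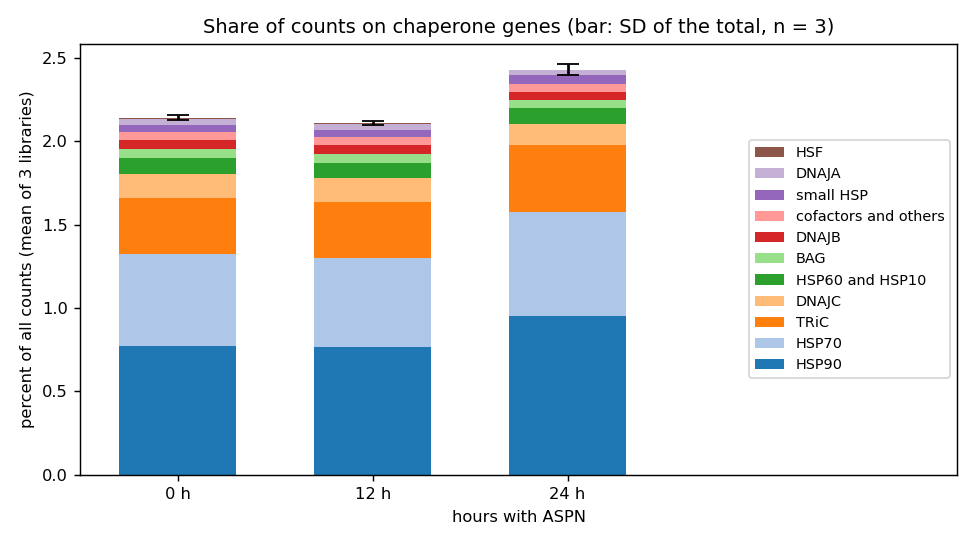
Percent of all counts of a library on each chaperone family (stacked bars, mean of 3 libraries) at 0, 12 and 24 hours with ASPN, with the SD of the total as an error bar. The total is 2.14% at time 0, 2.11% at 12 hours and 2.43% at 24 hours, and the HSP90 segment grows the most.

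At 12 hours no chaperone gene had passed the test. Of the 91 members, 80 had enough counts to be tested at 12 hours against time 0, and 0 were called, where called means an adjusted p of 0.05 or less (edgeR quasi-likelihood test, Benjamini-Hochberg over all genes tested) and a fold change of at least 1.5. Over all 11410 genes tested, 1.5% were called higher and 0.0964% lower. DESeq2 also called 0 members, and 14 members had an unadjusted p under 0.05 with edgeR, as had 21.4% of all genes. The log2 fold changes of the members ran from -0.48 to 0.30, with their median at -0.01 beside a median of -0.00487 over all genes. The libraries of the 2 times did not overlap for 15 members (18.75%), and for 27% of all genes.

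An adjusted p of 0.05 or less without the 1.5-fold change was found at 12 hours for 5 members, all of them higher, while 6.85% of all genes were higher and 3.47% lower by the same measure. The 5 of 80 are thus no larger a share than among all genes, and they are named here after their values were seen. Hspa4l, an Hsp110-type member of the Hsp70 family, was 217 to 220.4 CPM at time 0 and 235 to 242 CPM at 12 hours. Hsp90aa1, the inducible cytosolic Hsp90, was 772 to 788 CPM and then 832 to 849 CPM, and Stip1, the adaptor (HOP) that joins Hsp70 to Hsp90, was 270.4 to 273 CPM and then 290.0 to 295 CPM. The J-domain gene Dnajb4 was 32.8 to 35 CPM and then 38.1 to 39.5 CPM. Dnajc5, which encodes the cysteine string protein of secretory vesicles, was 139 to 143 CPM and then 156 to 159.9 CPM. In each of the 5, the 12-hour libraries all lay above the time 0 libraries, and the log2 differences were 0.11 to 0.21 (edgeR adjusted p = 0.0015 to 0.0247).

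At 24 hours the chaperones split. Of 81 members tested against time 0, 12 rose (14.8%) and 9 fell (11.1%), where 12% of all 11444 genes tested were called higher and 16.8% lower. The share that rose was close to that of all genes and the share that fell was below it. The same 12% and 16.8% are the background for the counts of each family and list at 24 hours. The other 60 were not called. The median log2 fold change of the members was 0.07 and that of all genes -0.02. The 24-hour libraries lay wholly above those of time 0 for 37 members and wholly below for 24, which together is 75.3% of the members, and 73.9% of all genes had no overlap. By the adjusted p alone, 36 members were higher and 23 lower, beside 34.4% and 36.5% of all genes. Against 12 hours, 10 of 81 members were called higher and 11 lower (10.4% and 15.3% of 11394 genes), and the libraries did not overlap for 65 (80.2%, against 73.9% of all genes). By the adjusted p alone 40 were higher and 24 lower, beside 35.7% and 35.6% of all genes.

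The split into higher and lower depends on the scaling. With library totals alone, 2 members were called higher (Hspa4l and Hspb11) and 16 lower at 24 hours, but the median of all genes then moved from -0.02 to -0.24 on the log2 scale, and that of the members from 0.07 to -0.15. Another scaling shifts all genes by about the same amount, so the position of the members relative to all genes says nothing about which scaling holds. Across the 81 members, the change at 24 hours had a Spearman correlation of 0.356 with the mean level and of -0.201 with transcript length (0.129 and -0.239 across all genes). These points share the same 6 libraries and are given as a description.

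**Figure D2:**
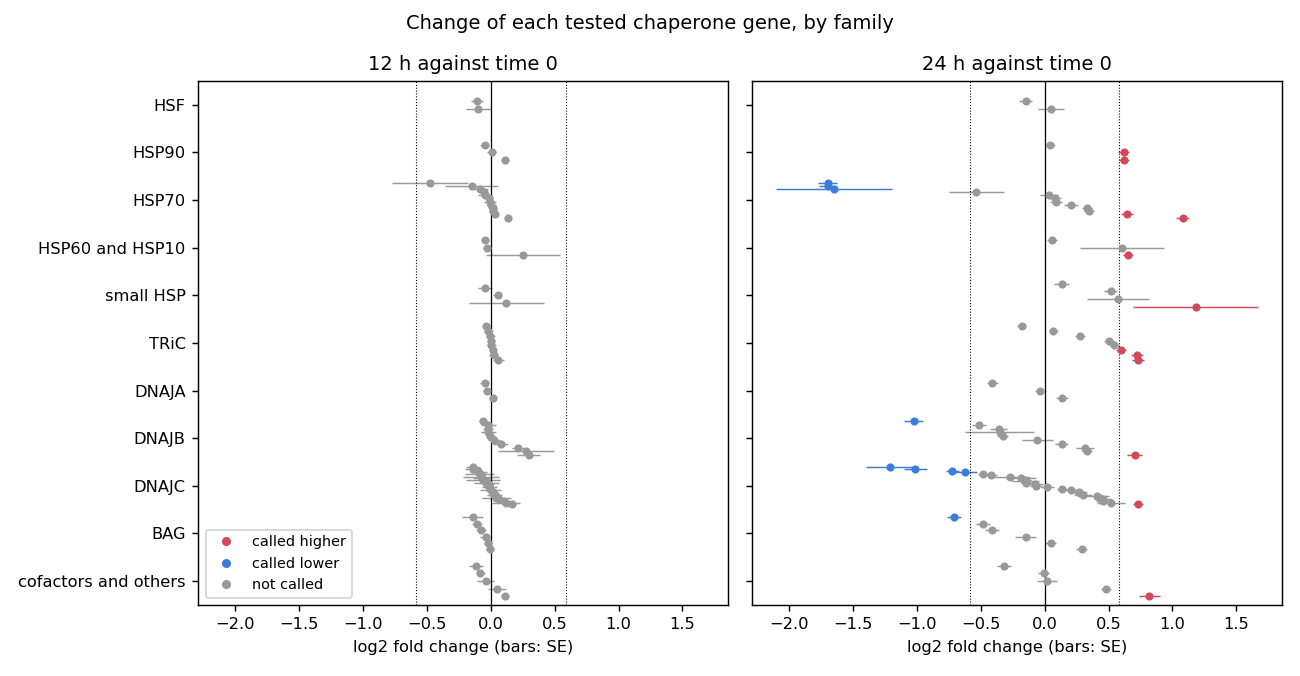
Log2 fold change with its SE for each tested member, grouped by family, at 12 hours (left) and 24 hours (right) against time 0, with dotted lines at a 1.5-fold change. No member is called at 12 hours, while at 24 hours 12 are called higher (red) and 9 lower (blue), and the HSP70 family holds members on both sides.

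The 2 heat shock factors, which switch on many of these genes, were near their starting level. Hsf1 was 52.6, 59.9 and 55.1 CPM in the 3 time 0 libraries, 52.9, 50.9 and 51.3 CPM at 12 hours and 50, 49.5 and 51.0 CPM at 24 hours. Its log2 fold change at 24 hours was -0.15 ± 0.053 (SE, edgeR adjusted p = 0.0225), short of 1.5-fold. Hsf2 was 8.56 to 10.6 CPM at time 0 and 9.07 to 10.6 CPM at 24 hours, and these ranges overlapped.

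Cytosolic Hsp90 rose. Hsp90ab1, the constitutive form, was the most abundant member by level per kilobase of exon at time 0 and 24 hours. It stood at 5336, 4963 and 5061 CPM at time 0, at 5051, 5189 and 5136 CPM at 12 hours and at 7924, 7579 and 7967 CPM at 24 hours. The libraries at 0 and 12 hours overlapped and those at 24 hours lay above both. The rise was 1.53-fold (log2 0.62 ± 0.045, SE, edgeR adjusted p = 4.69e-08). Hsp90aa1 was 772, 788 and 787 CPM, then 849, 849 and 832 CPM, then 1205, 1196 and 1199 CPM, and rose 1.54-fold over time 0 (log2 0.62 ± 0.038, edgeR adjusted p = 9.41e-09). Its 3 times did not overlap one another. Both folds are close to the limit of 1.5, and neither gene was called with library totals alone or by a test of the 1.5-fold limit itself (glmTreat), nor was Hsp90aa1 once counts were corrected for the length and GC content of transcripts. Hsp90b1, the Hsp90 of the ER (GRP94), was 1390.0 to 1441 CPM at time 0 and 1434 to 1479.6 CPM at 24 hours, which overlapped (log2 0.04 ± 0.040, edgeR adjusted p = 0.392).

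Hsp90 works with partners that load its clients or set its pace. Stip1 reached 361, 391 and 378 CPM at 24 hours, above the 270.4, 273 and 271 CPM of time 0, a difference of 0.48 ± 0.041 on the log2 scale that was short of 1.5-fold (edgeR adjusted p = 2.09e-07). Ahsa1, the activator of the Hsp90 ATPase, was 107 to 113 CPM at time 0 and 103 to 113 CPM at 24 hours (log2 -0.01 ± 0.045, edgeR adjusted p = 0.877). Of 14 Hsp90 cochaperones outside the rule, 2 rose and 1 fell at 24 hours (12% and 16.8% of all genes). Cdc37, which brings protein kinases to Hsp90, rose from 379 to 399.8 CPM at time 0 to 683 to 731 CPM (log2 0.86 ± 0.042, edgeR adjusted p = 1.38e-09). Sugt1, the cochaperone SGT1, rose by 0.63 ± 0.047 on the log2 scale (edgeR adjusted p = 5.35e-08). Fkbp5, an androgen-regulated immunophilin, fell from 776 to 812 CPM to 453 to 508 CPM (log2 -0.70 ± 0.048, edgeR adjusted p = 2.7e-08).

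The Hsp70 family held both the strongest rise and the strongest falls among the well-counted members. Of 14 genes, 12 were tested at 24 hours, 2 rose and 3 fell (12% and 16.8% of all genes). Hspa4l was 220.4, 217 and 217 CPM at time 0, 235, 238 and 242 CPM at 12 hours and 494, 425 and 461 CPM at 24 hours. The times did not overlap, and the rise from time 0 to 24 hours was 2.11-fold (log2 1.08 ± 0.051, edgeR adjusted p = 1.06e-09). Hspa4l kept its call under every alternative that was run, the scaling by totals and glmTreat among them. Hspa8, the constitutive cytosolic Hsp70 (Hsc70), was 2231, 2133 and 2245 CPM, then 2088, 2166 and 2096 CPM, then 3609, 3236 and 3448 CPM. All 24-hour libraries were above the others, and Hspa8 rose 1.56-fold (log2 0.64 ± 0.048, edgeR adjusted p = 6.09e-08), a call that was lost with library totals alone and with glmTreat.

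The stress-inducible Hsp70 genes Hspa1a and Hspa1b fell. These are single-exon genes in tandem on chromosome 17, and their upstream sequences are the pair printed above. Hspa1b was 164, 165 and 167 CPM at time 0, 170.0, 168 and 163 CPM at 12 hours and 53.2, 44.0 and 55.0 CPM at 24 hours. Hspa1a was 21.7, 21.1 and 22.3 CPM, then 19.1, 19.7 and 22.5 CPM, then 6.62, 6.48 and 6.86 CPM. For both, the 0- and 12-hour libraries overlapped and all 24-hour libraries lay far below. Each fell to 0.308 of its time 0 level (log2 -1.70 ± 0.076 for Hspa1a and -1.70 ± 0.068 for Hspa1b, edgeR adjusted p = 6.73e-10 and 2.57e-10). Reads can be shared between genes this alike, and with their counts summed into 1 gene the change was -1.70 as well. Exons of Gm20481 on the opposite strand cover 19% of the exon bases of Hspa1a. Both calls held under every alternative that was run. Hspa12b, a distant Hsp70 relative, was also called lower, on counts of 24 to 30 at time 0 and 4 to 15 at 24 hours (log2 -1.65 ± 0.45, edgeR adjusted p = 0.00511), and it is named after its values were seen.

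The rest of the Hsp70 family moved less. Hspa5 (BiP), the Hsp70 of the ER, was 1509, 1461 and 1461 CPM at time 0 and 1479, 1627 and 1585 CPM at 24 hours, and the times overlapped (log2 0.09 ± 0.045, edgeR adjusted p = 0.0979). Hspa9 (mortalin), the mitochondrial Hsp70, was 650.4 to 669 CPM and then 819.8 to 853 CPM, higher by 0.35 ± 0.039 on the log2 scale without reaching 1.5-fold (edgeR adjusted p = 3.19e-06). Hspa4 and Hsph1 belong with Hspa4l to the Hsp110 class of exchange factors. Hspa4 differed by 0.33 ± 0.042 (edgeR adjusted p = 9.85e-06) and Hsph1 by 0.08 ± 0.045 (edgeR adjusted p = 0.135), against 1.08 for Hspa4l.

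**Figure D3:**
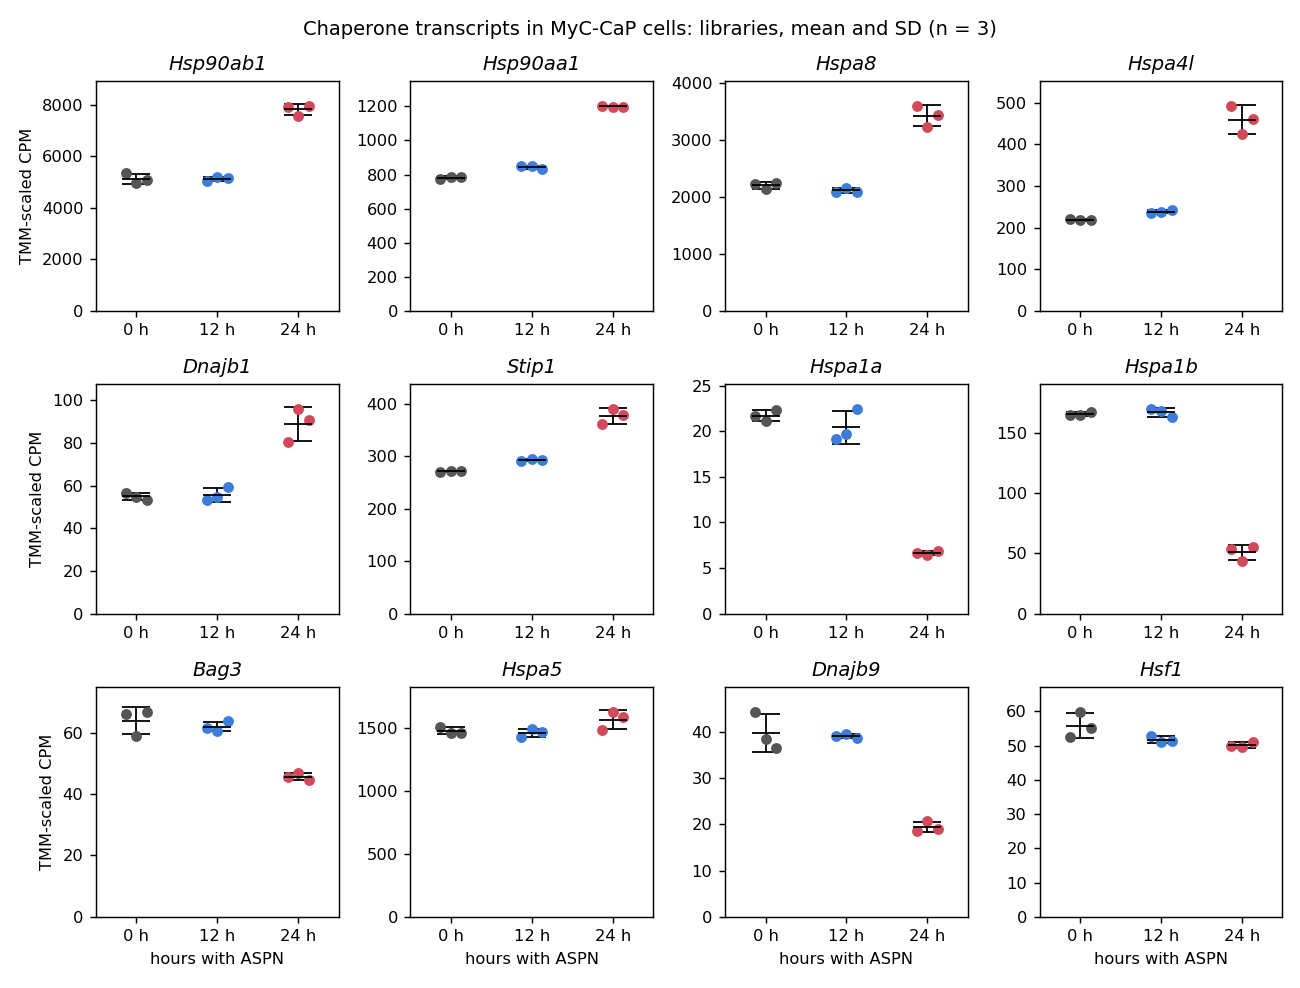
TMM-scaled CPM of 12 named members in each of the 3 libraries per time (points) with the mean and SD, at 0, 12 and 24 hours with ASPN. Hsp90ab1, Hsp90aa1, Hspa8, Hspa4l and Dnajb1 sit higher at 24 hours, Hspa1a, Hspa1b and Dnajb9 sit lower, and Hspa5 overlaps its time 0 range.

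J-domain proteins, which recruit Hsp70 to its clients, were the largest group with 42 members, 38 of them tested. At 24 hours 2 rose and 5 fell, shares below the 12% and 16.8% of all genes that were called. Dnajb1 (Hsp40), the main J-domain partner of inducible Hsp70, was 56.8, 54.9 and 53.2 CPM at time 0, 53.2, 54.6 and 59.5 CPM at 12 hours and 80.4, 96.1 and 90.8 CPM at 24 hours. Its 24-hour libraries lay above the rest, and it rose 1.63-fold (log2 0.70 ± 0.060, edgeR adjusted p = 2.28e-07), a call lost with library totals alone and with glmTreat. Dnajc21, which acts in ribosome biogenesis, rose from 104 to 109.5 CPM to 173 to 179 CPM (log2 0.73 ± 0.040, edgeR adjusted p = 3.44e-09), and was not called with library totals alone. Dnaja1, another cytosolic Hsp40, was 109 to 118 CPM and then 118 to 129 CPM, ranges that met (log2 0.14 ± 0.048, edgeR adjusted p = 0.0222).

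Among the J-domain genes that fell, Dnajb9 (ERdj4) encodes a cochaperone of BiP in the ER. It was 44.3, 38.5 and 36.4 CPM at time 0, 39.0, 39.6 and 38.6 CPM at 12 hours and 18.6, 20.7 and 18.9 CPM at 24 hours, a fall to 0.49 of its start (log2 -1.03 ± 0.076, edgeR adjusted p = 5.59e-08) with no overlap. Dnajc16 fell from 26.8 to 30.1 CPM to 13.1 to 16.4 CPM (log2 -1.01 ± 0.088, edgeR adjusted p = 2.59e-07). With the length and GC correction its change was -0.62 and still called, while at 24 against 12 hours the correction took it from -0.85 to -0.45, where it was not called. Dnajc14, which takes part in export of receptors from the ER, fell from 65.3 to 68.7 CPM to 38.7 to 42.9 CPM (log2 -0.73 ± 0.051, edgeR adjusted p = 3.42e-08). Dnajc28 fell from 2.96 to 3.32 CPM to 1.08 to 1.62 CPM (log2 -1.22 ± 0.18, edgeR adjusted p = 4.51e-05). Dnajc30, a mitochondrial protein, fell from 10.8 to 12.5 CPM to 6.83 to 8.21 CPM (log2 -0.63 ± 0.099, edgeR adjusted p = 7.13e-05). The call on Dnajc30 was lost in 3 of 18 alternatives, glmTreat among them. It also rested on single libraries: without time 0 replicate 1 its change was -0.55 and without 24-hour replicate 2 it was -0.56, both short of 1.5-fold. On the opposite strand, exons of Ormdl2 cover 17% of the exon bases of Dnajc14 and exons of Bud23 cover 26.2% of those of Dnajc30, and whether the counting used strand is not given in the sources used here.

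Dnajb4 was 33.1, 32.8 and 35 CPM at time 0, 39.5, 38.9 and 38.1 CPM at 12 hours and 23.7, 23.8 and 23.0 CPM at 24 hours, with no overlap between any of the times. It was called lower at 24 against 12 hours (log2 -0.70, edgeR adjusted p = 3.34e-08), and its difference from time 0 at 24 hours, -0.51 ± 0.055, was short of 1.5-fold (edgeR adjusted p = 2.03e-06). Dnajb13, of the sperm flagellum, was also called lower at 24 against 12 hours on 34 to 62 counts per library (log2 -0.61, edgeR adjusted p = 0.0432), and is named after its values were seen.

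The BAG proteins release nucleotide from Hsp70. Of 6, 1 fell at 24 hours and 0 rose. Bag5 was 44.0, 43.0 and 42.4 CPM at time 0, 39.7, 40.7 and 42.0 CPM at 12 hours and 24.8, 26.3 and 27.7 CPM at 24 hours (log2 -0.71 ± 0.056, edgeR adjusted p = 9.33e-08), again with the last time wholly below. Bag3, the HSF1-inducible member that works in selective autophagy, was 58.9 to 66.8 CPM and then 44.5 to 46.8 CPM, without overlap but short of 1.5-fold (log2 -0.48 ± 0.055, edgeR adjusted p = 3.7e-06). Bag2 was in the same position (log2 -0.42 ± 0.055, edgeR adjusted p = 1.39e-05). Bag1, which carries a ubiquitin-like domain, differed in the other direction, from 149.8 to 158 CPM to 182 to 197 CPM (log2 0.29 ± 0.043, edgeR adjusted p = 4.25e-05).

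The chaperonins fold actin, tubulin and other large proteins in closed chambers. TRiC is built from 8 subunits, and 3 of them rose at 24 hours. Cct4 was 402, 377 and 403 CPM at time 0, 391, 398 and 394 CPM at 12 hours and 672, 622 and 661 CPM at 24 hours (log2 0.73 ± 0.045, edgeR adjusted p = 1.02e-08). Tcp1, the alpha subunit, rose from 317 to 350.4 CPM to 543 to 571 CPM (log2 0.72 ± 0.046, edgeR adjusted p = 1.43e-08), and Cct2 from 568 to 595 CPM to 871 to 892 CPM (log2 0.60 ± 0.039, edgeR adjusted p = 1.76e-08). In all 3 the 24-hour libraries lay above the rest. With library totals alone none of the 3 reached 1.5-fold (log2 0.38 to 0.51), and Cct2 also lost its call under glmTreat and the length and GC correction. Exons of Acat3 on the opposite strand cover 11.4% of the exon bases of Tcp1.

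The subunits that were not called had the following values. Cct5 differed by 0.54 ± 0.040 on the log2 scale (edgeR adjusted p = 5.84e-08), Cct8 by 0.50 ± 0.039 (edgeR adjusted p = 7.68e-08), Cct7 by 0.28 ± 0.041 (edgeR adjusted p = 4.32e-05) and Cct6a by 0.07 ± 0.038 (edgeR adjusted p = 0.122). Cct3 alone of the 8 had a negative value, -0.18 ± 0.038 (edgeR adjusted p = 0.000824), with 354 to 367 CPM at time 0 and 309 to 319.6 CPM at 24 hours. Prefoldin and the phosducin-like proteins hand substrates to TRiC. Of 9 such genes outside the rule, 2 rose and 0 fell at 24 hours, Pfdn1 (log2 0.69 ± 0.049, edgeR adjusted p = 3.56e-08) and Pfdn5 (log2 0.68 ± 0.055, edgeR adjusted p = 1.27e-07).

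In the mitochondrion, Hspd1 (Hsp60) forms the chamber and Hspe1 (Hsp10) its lid. The genes stand head to head on chromosome 1, and the stretch printed from upstream of Hspe1 lies inside the annotated span of Hspd1. Hspe1 was 186, 179 and 185 CPM at time 0, 180.5, 179 and 177 CPM at 12 hours and 287, 284 and 289.6 CPM at 24 hours, and it rose 1.57-fold (log2 0.65 ± 0.038, edgeR adjusted p = 5.7e-09). Hspd1 was 718, 723 and 759 CPM, then 718, 707 and 701 CPM, then 768, 755 and 756 CPM, and its 24-hour range overlapped that of time 0 (log2 0.06 ± 0.040, edgeR adjusted p = 0.228). After the length and GC correction the change of Hspe1 was 0.37 and no longer called, which was also so with library totals alone and with glmTreat, and that of Hspd1 was -0.03. Exons of the 2 genes overlap by 112 bases on opposite strands.

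**Figure D4:**
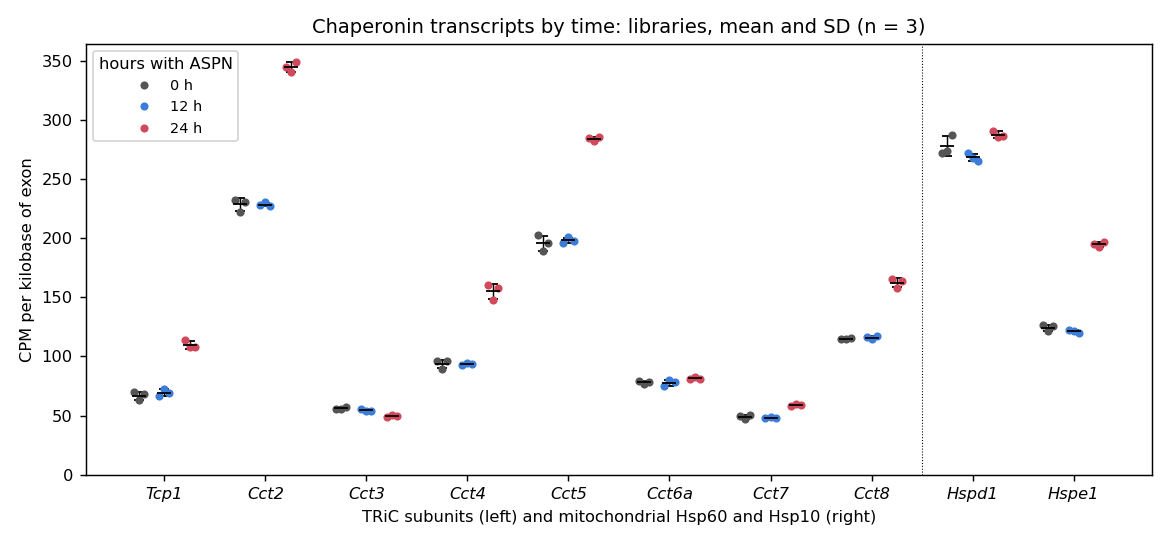
CPM per kilobase of exon of the 8 TRiC subunits and of the mitochondrial chaperonin genes Hspd1 and Hspe1 in each library (points) with the mean and SD (n = 3), at 0, 12 and 24 hours with ASPN. The 24-hour points lie above the time 0 points for 7 TRiC subunits and for Hspe1, below them for Cct3, and overlap for Hspd1. Heights of different genes depend on the length they are divided by.

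Of 16 partners and proteases of the mitochondrial chaperones outside the rule, 0 were called at 24 hours by edgeR and 1 by DESeq2, 15 had an unadjusted p under 0.05, as had 72.8% of all genes, and their log2 changes ran from -0.33 to 0.57 around a median of 0.29. The list of 7 mitochondrial members held 1 that rose, Hspe1, and 0 that fell, and their median was 0.30. Dnajc30, which is also mitochondrial and fell, is not on that list.

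The small heat shock proteins hold unfolding proteins in oligomers without ATP. Hspb1 (Hsp25) was 373, 377 and 391 CPM at time 0, 384, 396 and 401 CPM at 12 hours and 500.0, 571 and 555 CPM at 24 hours, apart from both other times but short of 1.5-fold (log2 0.52 ± 0.050, edgeR adjusted p = 7.56e-07). Hspb2 was called higher on 5 to 10 counts at time 0 and 12 to 20 at 24 hours (log2 1.18 ± 0.49, edgeR adjusted p = 0.0453), is named after its values were seen, and overlaps exons of Cryab over 30.2% of its exon bases. Hspb8 had 0 counts in 8 of 9 libraries. Hspb11, an intraflagellar transport protein (IFT25) in spite of its name, rose from 13.5 to 14.9 CPM to 21.6 to 26.7 CPM (log2 0.82 ± 0.084, edgeR adjusted p = 1.26e-06), and was not called after the length and GC correction.

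The list of HSF1-induced members was drawn up with earlier results of these data known. It holds 17 members, not every HSF1 target, and 16 of them were tested. At 24 hours 6 rose (Hspa4l, Dnajb1, Hspe1, Hspa8, Hsp90aa1, Hsp90ab1) and 2 fell (Hspa1a, Hspa1b), beside 12% and 16.8% of all genes, and the median change on the log2 scale was 0.31 beside -0.02 for all genes. Among those that rose, Hspa8 and Hsp90ab1 are also expressed at a high level without stress, and the pair that fell is the one most often used to read out heat shock.

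In the ER, folding enzymes and chaperones act on secreted and membrane proteins. Of 8 members listed as ER-resident, 1 fell (Dnajb9) and 0 rose at 24 hours, with a median of -0.07. Dnajc14, which takes part in export of receptors from the ER and fell, is not on that list. Dnajc3, the BiP cochaperone p58IPK, was 167 to 176 CPM at time 0 and 119.9 to 124 CPM at 24 hours (log2 -0.48 ± 0.041, edgeR adjusted p = 1.91e-07), short of 1.5-fold. Hspa5, Hsp90b1 and Dnajc3 are the members whose windows held the ER stress element, and their log2 fold changes were 0.09, 0.04 and -0.48. Outside the rule, 1 of 19 tested ER folding enzymes and lectins rose and 3 fell, shares no larger than the 12% and 16.8% of all genes. The one that rose was Ppib, cyclophilin B, from 187 to 204 CPM to 288 to 294 CPM. Hyou1, the large Hsp70 of the ER, fell from 511 to 537 CPM to 272 to 334 CPM (log2 -0.79 ± 0.061, edgeR adjusted p = 8.58e-08). The disulfide isomerases Pdia4 (log2 -0.77 ± 0.046, edgeR adjusted p = 8.01e-09) and Txndc5 (log2 -0.97 ± 0.054, edgeR adjusted p = 3.51e-09) fell as well.

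Of 15 tested sensors and factors of the unfolded protein response, 3 rose and 6 fell at 24 hours, beside 12% and 16.8% of all genes, with a median of -0.51 beside -0.02. Atf4, a transcription factor of the integrated stress response, rose from 233 to 261 CPM to 574 to 618 CPM (log2 1.26 ± 0.050, edgeR adjusted p = 2.54e-10), and its target Ddit3 (CHOP) from 6.08 to 7.89 CPM to 10.4 to 11.9 CPM (log2 0.71 ± 0.11, edgeR adjusted p = 6.46e-05). Eif2ak3 (PERK), the kinase that acts upstream of Atf4 in ER stress, fell from 33.2 to 35.4 CPM to 13.6 to 15.7 CPM (log2 -1.20 ± 0.068, edgeR adjusted p = 4.06e-09). Sel1l, of the ER-associated degradation complex, fell from 148 to 165 CPM to 62.1 to 72.3 CPM (log2 -1.18 ± 0.060, edgeR adjusted p = 1.78e-09). The other called genes of this list, named after their values were seen, were Herpud1 (log2 0.67 ± 0.048), Syvn1 (log2 -1.09 ± 0.057), Wfs1 (log2 -0.79 ± 0.090), Xbp1 (log2 -0.75 ± 0.044) and Edem1 (log2 -0.60 ± 0.044). At 12 hours 0 of the 73 tested genes on these lists outside the rule were called by edgeR or by DESeq2, and 19 had an unadjusted p under 0.05 with edgeR, beside the 21.4% of all genes given above.

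**Figure D5:**
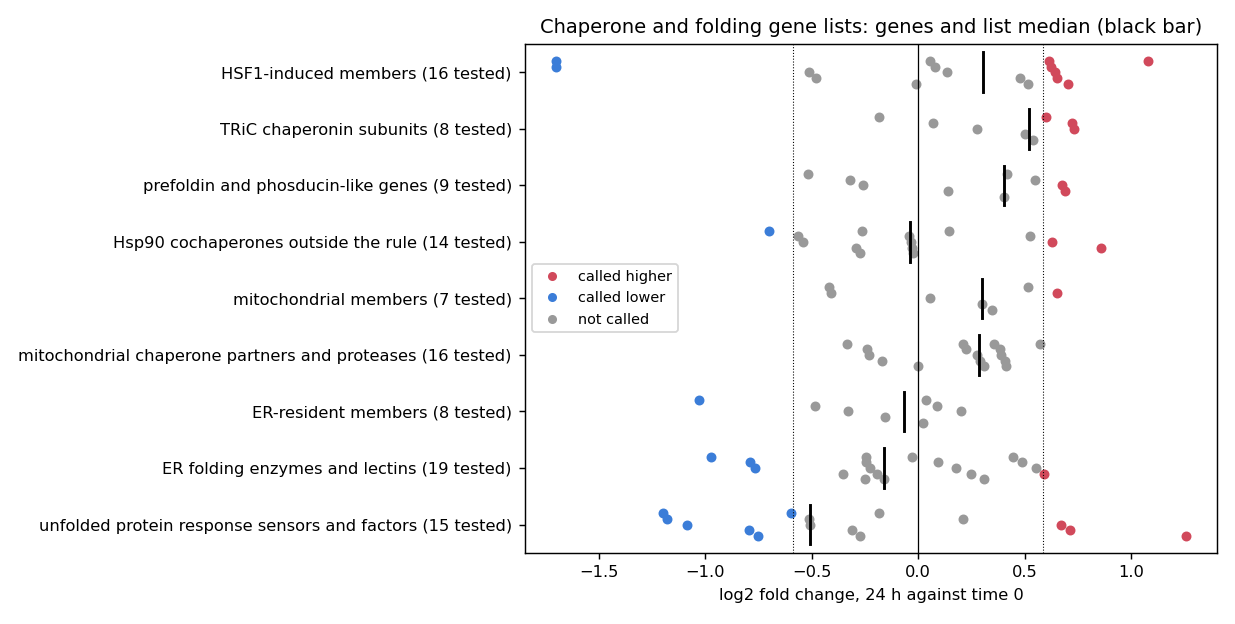
Log2 fold change at 24 hours against time 0 for every tested gene of 9 chaperone and protein folding lists (points, colored by call), with the median of each list as a black bar and dotted lines at a 1.5-fold change. The median is 0.52 for the TRiC subunits and 0.31 for the HSF1-induced members, and -0.51 for the unfolded protein response genes.

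Levels differed over several orders of magnitude. Per kilobase of exon at time 0, Hsp90ab1 led with 1707 ± 64.5 CPM (SD, n = 3), followed by Hspa8 with 512 ± 14.2, Hspb1 with 369 ± 9.25, Hsp90b1 with 352 ± 6.45 and Hspa5 with 349 ± 6.62. Hsp90b1 and Hspa5 were within 1 SD of each other. The order depends on the length used. Divided by the longest coding transcript, a choice made after the data were seen, the levels were 2032 ± 76.7 for Hsp90ab1, 920.2 ± 25.6 for Hspa8, 502 ± 9.20 for Hsp90b1, 409 ± 10.3 for Hspb1 and 402 ± 7.62 for Hspa5, so the same 5 led, Hspb1 and Hsp90b1 changed places, and Hspb1 and Hspa5 were within 1 SD of each other. At the other end, 11 members had too few counts to be tested at 12 hours and 10 at 24 hours, namely Dnaja4, Dnajb7, Dnajb8, Dnajc6, Hspa12a, Hspa1l, Cct6b, Cct8l1, Hspb8 and Hspb9, with Hspb2 at 12 hours only, and none of them had more than 15 counts in a library of the comparison. Several of these are known from testis, brain or muscle.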

How the data were processed

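MyC-CaP RNA was sequenced in 9 libraries, 3 each at 0, 12 and 24 hours with ASPN. The authors trimmed paired-end TruSeq mRNA reads with Cutadapt, aligned them with STAR to GRCm38.p6 and used featureCounts to assign them to GENCODE genes. The deposited table holds these raw counts, not normalized. How the genes of the table were chosen, and whether strand was used, is not given in the sources used here.

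Each comparison was fitted over all genes in R 4.3.3 with edgeR 4.0.16 (filterByExpr, TMM, quasi-likelihood test, no block, Benjamini-Hochberg). Called genes had an adjusted p no higher than 0.05 and changed by 1.5-fold or more. CPM values are TMM scaled over the 9 libraries, and levels between genes are per kilobase of exon in GENCODE M21, where 15374 of 15384 genes were found. The SE of a log2 fold change is its size divided by the square root of F. Replicates are separate wells by the methods, and the p-values measure the spread between them. Every pair of libraries from 1 time exceeded sampling noise (chi-square per degree of freedom 3.41 to 17.5). The fits were also run on simulated counts as a check of the code, which does not bear on the calls in these data.

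The members, gene lists and named genes were chosen with earlier results of these data known. Named were a core set of chaperones, the 8 highest and 8 lowest called members averaging 50 or more normalized counts where more than 12 were called, the 5 members of highest level, and, in each list outside the members, the called genes at 24 hours where at most 4 were called and otherwise the 2 highest and 2 lowest. Alternatives were DESeq2 1.42.0, other scalings and filters, all 9 libraries in one fit, the replicate block, length and GC offsets (loess, span 0.3), glmTreat, the adjusted p alone and leaving out each library. Summing Hspa1a and Hspa1b and dividing levels by transcript length were added after the data were seen. LNCaP and NRG1β libraries were not analysed here. Some markers of the prostate epithelium are not reported here.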

Additional observations from a re-analysis of the deposited data

Results flagged for a closer look

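Dnajb4 stood apart in that its libraries lay above time 0 at 12 hours (38.1 to 39.5 CPM against 32.8 to 35 CPM) and below it at 24 hours (23 to 23.8 CPM). The difference between 24 and 12 hours was -0.70 on the log2 scale and was called in edgeR's quasi-likelihood test (Benjamini-Hochberg adjusted p = 3.34e-08).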

How the results depend on the processing

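With 3 libraries per time, the test rests on few replicates, and genes near 1.5-fold change side easily. The counts of called members (12 higher and 9 lower at 24 hours, 10 and 11 at 24 against 12 hours, 0 at 12 hours) stayed within 1.5 times of these with DESeq2, RLE or upper-quartile factors, without the mitochondrially encoded genes, under other filters, with all 9 libraries in one fit and with length and GC offsets. With library totals alone they were 2 higher and 16 lower at 24 hours, and 1 higher at 24 against 12 hours. With glmTreat they were 5 higher at 24 hours, and 6 higher and 7 lower at 24 against 12 hours, since that test asks for more than 1.5-fold. With the adjusted p alone they were 5 higher at 12 hours, 36 higher and 23 lower at 24 hours, and 40 and 24 at 24 against 12 hours, where 10.3%, 70.9% and 71.3% of all genes passed in either direction. Leaving out 1 library gave 11 to 12 higher and 8 to 10 lower at 24 hours, 10 to 11 and 8 to 9 at 24 against 12 hours, and 0 to 0 at 12 hours. Same-numbered libraries deviated together only weakly or not at all (mean correlations -0.02, -0.063 and 0.015), so the numbers were not taken as pairs. With the replicate block, 11 members were higher and 9 lower at 24 hours, 10 and 10 at 24 against 12 hours, and 0 at 12 hours.

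Signs turned only for named genes that were not called, at 24 hours against time 0. With library totals alone the log2 changes were -0.17 for Hsf2, -0.18 for Hsp90b1, -0.17 for Hspd1, -0.13 for Hspa5, -0.086 for Dnaja1, -0.15 for Cct6a and -0.14 for Hsph1, while the median of all genes moved to -0.24. With length and GC offsets they were 0.20 for Dnajc5, -0.12 for Hsf2, -0.074 for Hsp90b1 and -0.026 for Hspd1, and with the block added 0.20, -0.12, -0.074 and -0.026. Ahsa1 was at 0.0043 with DESeq2, 0.0043 with RLE and 0.023 with upper-quartile factors. Leaving out 1 library, Hsf2 ranged from -0.011 to 0.15 and Ahsa1 from -0.035 to 0.026. Of 757 values of named genes at 24 hours under alternatives, 702 kept direction and side of the threshold.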
